A study of Mus musculus with 2 samples.

Results

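The genes described here make, activate, store and release fatty acids. They are 42 of the 30193 genes named on the array and were matched by name to the array's own gene annotation. The list was drawn up with earlier results of these data known, so that it is not blind to their values. By role they comprised 10 genes of fatty acid synthesis and desaturation, 5 of fatty acid activation, 13 of triglyceride assembly, 5 lipid droplet proteins, 6 lipases and 3 regulators of lipogenesis. Expression was measured in the skin of newborn C57BL/6N mice at postnatal day 0 on 2 one-colour (Cy3) Agilent mouse arrays. One array held RNA of wild-type (WT, Pnpla1+/+) littermates and the other RNA of knockout (Pnpla1-/-) mice, each a pool of equal amounts of RNA from 6 animals. The knockout derives from the Pnpla1 tm1a(KOMP)Wtsi allele in C57BL/6N embryonic stem cells, from which the lacZ and Neo cassettes had been removed with flippase, and Pnpla1 was lost in the whole animal rather than in keratinocytes alone. The labels call the tissue skin, whereas the series description speaks of epidermis, and the sex of the pups is not given. Each genotype has 1 array and no test can be made, so that every result below is a difference between 2 pools without a replicate check.

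An intensity below is the background-subtracted fluorescence of a probe in arbitrary units. A difference is that intensity divided by the 75th percentile of its array, on the log2 scale, Pnpla1-/- minus WT, so that 1 is 2-fold. The 75th percentile was 2108 in WT and 1734 in Pnpla1-/- skin, and equal intensities on both arrays therefore correspond to a difference of 0.28. The spread of repeated spots is the standard deviation among spots of one probe, combined over both arrays as the square root of the summed squares. Its median was 0.08 on this scale (309 probes with at least 8 spots). The scanner software's own error for a member's difference lay between 0.20 and 0.29. Both measures describe the measurement of 1 pool and leave out the spread between animals. Pnpla1, the targeted gene, gave 579 in WT and 114 in Pnpla1-/- skin, a difference of -2.07, and its probe remained well above background in the knockout. Markers of keratinocytes and of fibroblasts were well above background on both arrays, with intensities from 53789 to 277989 in WT skin for the keratinocyte markers Krt5, Krt14, Krt1, Krt10 and Lor. All 8 markers of skeletal muscle and 8 of 9 of adipocytes were measured as well, so that the samples held more than epidermis. The keratinocyte markers differed by -0.30 (Lor) to 1.35 (Krt14), with summed scaled levels of 501 in WT and 565 in Pnpla1-/- skin. Fibroblast markers differed by -0.27 to 0.32, muscle markers by -0.22 to 0.57 and 6 endothelial markers by -0.04 to 1.35 (Vwf).

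Fatty acids are built from cytosolic acetyl-CoA, which ATP citrate lyase supplies. Acetyl-CoA carboxylase and fatty acid synthase lengthen it to palmitate, and desaturases then introduce double bonds. Acyl-CoA synthetases activate the product, and glycerol-phosphate acyltransferases, lysophosphatidic acid acyltransferases, lipins and diacylglycerol acyltransferases assemble it into triglyceride, which is stored in droplets and released by lipases. In the epidermis these fatty acids also feed the ceramides and the ω-O-acylceramides of the water barrier, and PNPLA1 transfers linoleate from triglyceride to ω-hydroxyceramide in the last step of acylceramide synthesis. Transcription of the synthetic genes is driven largely by SREBP-1, the product of Srebf1, which binds sterol regulatory elements, often next to CCAAT boxes, and by the glucose-responsive factor ChREBP, the product of Mlxipl. Thrsp encodes a lipogenic protein whose gene responds to both.

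The promoters of Fasn, Srebf1 and Thrsp are shown because these are a lipogenic enzyme and 2 lipogenic regulators that were at least 2-fold higher in Pnpla1-/- skin after scaling by the 75th percentile, Fasn and Srebf1 not without scaling (0.86 and 0.87). Each line gives the 250 bases before the RefSeq transcription start on the coding strand (GRCm38.p6), with the sterol regulatory element core TCACCC and the CCAAT box in capitals on either strand (GGGTGA and ATTGG on the other).
Fasn, chr11:120824548-120824797, minus strand: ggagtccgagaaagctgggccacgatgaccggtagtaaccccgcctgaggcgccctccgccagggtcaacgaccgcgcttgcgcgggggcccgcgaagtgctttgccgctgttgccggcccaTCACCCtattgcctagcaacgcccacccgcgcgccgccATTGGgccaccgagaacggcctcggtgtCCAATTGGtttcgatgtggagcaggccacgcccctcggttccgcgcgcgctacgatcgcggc
Srebf1, chr11:60210472-60210721, minus strand: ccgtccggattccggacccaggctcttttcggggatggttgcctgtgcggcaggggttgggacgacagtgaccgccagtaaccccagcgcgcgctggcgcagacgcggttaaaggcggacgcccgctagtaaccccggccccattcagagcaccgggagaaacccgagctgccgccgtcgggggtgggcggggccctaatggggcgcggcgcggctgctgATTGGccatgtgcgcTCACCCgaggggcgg
Thrsp, chr7:97417551-97417800, minus strand: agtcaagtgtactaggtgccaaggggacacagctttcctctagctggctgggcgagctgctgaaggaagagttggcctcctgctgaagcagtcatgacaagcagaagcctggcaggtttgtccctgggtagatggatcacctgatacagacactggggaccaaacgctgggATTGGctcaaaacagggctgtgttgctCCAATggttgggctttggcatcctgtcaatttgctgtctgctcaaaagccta
The window of Fasn held 1 TCACCC core and 3 CCAAT boxes, of which 2 face each other and overlap, and that of Srebf1 (the most downstream of 3 annotated starts) held 1 core and 1 CCAAT box. The Thrsp window held 2 CCAAT boxes and no core. RefSeq promoters were found for 32 members, with 43 start sites. The core was found in windows of 10 members, namely Acsl1, Acsl5, Acss2, Agpat2, Agpat4, Fasn, Gpam, Plin1, Scd3 and Srebf1. Their differences ran from -1.16 (Agpat4) to 1.15 (Fasn and Srebf1). TCACCC occurred in 23.26% of the 43 windows against 13.83% of all 32851 promoters. CCAAT occurred in 44.19% against 33.85%, and the E-box CACGTG in 6.977% against 6.021%. These are descriptions of letters in a window, searched on both strands with motifs picked after the differences were known, and they do not show that a factor was bound.

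All 42 members were well above background on both arrays by their brightest probe, with probe intensities from 41.9 to 47992 in WT skin. The median difference of the members was 0.35, against 0.00 over the 22400 genes with a difference. In all, 34 members lay above 0 and 8 below. Of the members 7 of 42 (16.7%) were at least 2-fold higher in Pnpla1-/- skin, against 6.7% of all genes with a difference, and 2 of 42 (4.76%) were at least 2-fold lower, against 3.04%. The higher members were Lipn, Cidea, Thrsp, Mogat2, Srebf1, Fasn and Scd1, and the lower ones Agpat5 and Agpat4. Differences of 35 members exceeded the spread of repeated spots (0.08), whereas Acsl3, Fads3, Gpam, Lpl, Mgll, Plin1 and Scd3 differed by less. By the wider scanner error of each member 29 exceeded it, and Acsl1, Acsl4, Agpat1, Cidec, Dgat2 and Mlxipl also lay within. The direction of small differences depends on the scaling. With each array centred on 8 E1A spike-in probes, the median of all genes moved to -0.43 and that of the members to -0.08, and 20 members lay above 0 and 22 below. Such a shift moves every gene alike and leaves the order of the genes as it was. Relative to the median of all genes, 34 of the 42 lay above it with the 75th percentile scaling, 31 with normexp background correction and 28 without a filter on dim probes.

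**Figure D1:**
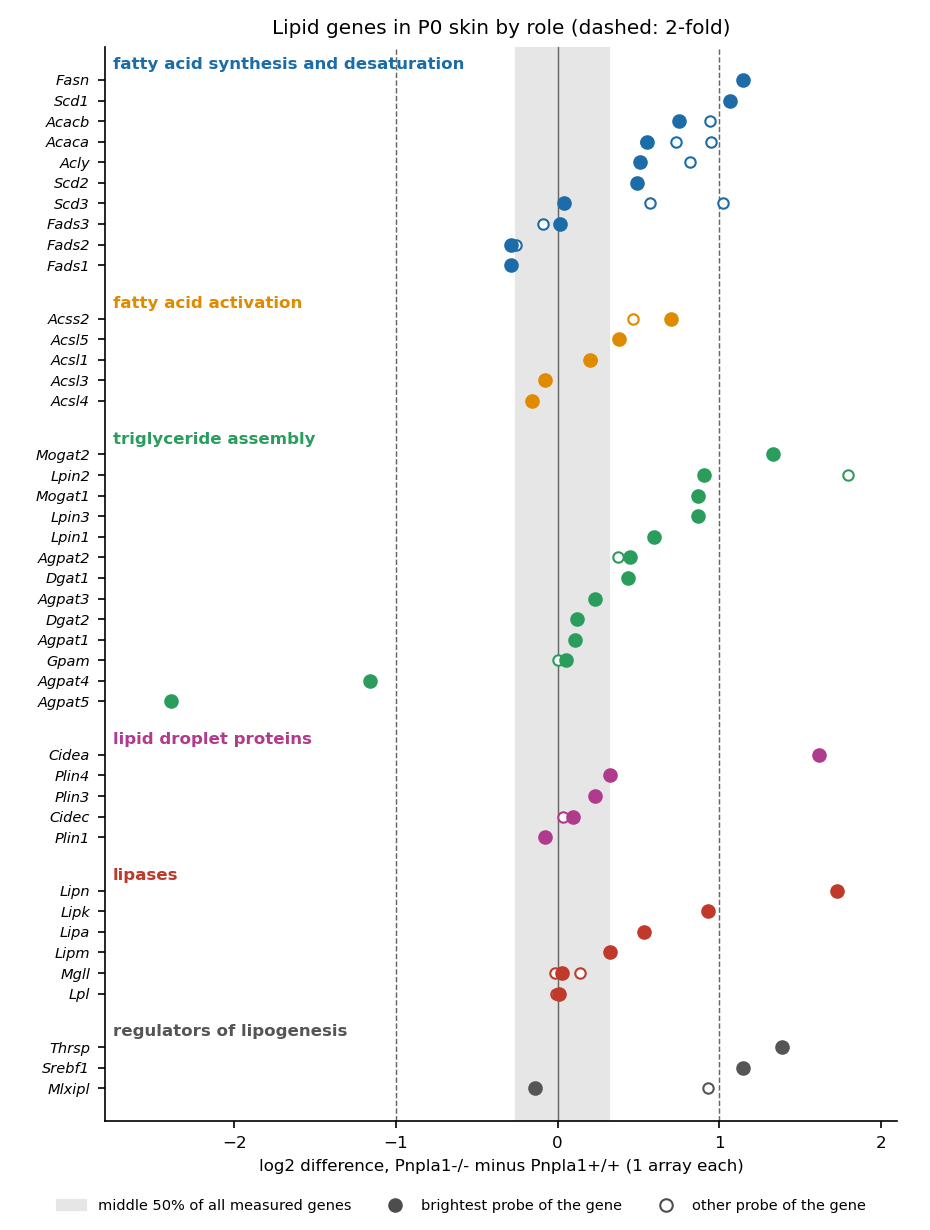
Log2 difference (Pnpla1-/- minus WT, 1 array each) of every member, grouped by role. Filled points are the brightest probe of a gene, open points its other probes above background, the grey band holds the middle 50% of all genes with a difference, and dashed lines mark 2-fold. Agpat5 and Agpat4 stand alone on the left, and 7 filled points lie beyond the right dashed line.

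Genes of the route from citrate to monounsaturated fatty acids (Acly, Acaca, Fasn, Scd1 and Scd2), and Acacb beside them, were higher in Pnpla1-/- skin under every scaling. Fads1 and Fads2, of polyunsaturated fatty acid synthesis, were not. Fasn, which encodes fatty acid synthase, gave 491 in WT and 894 in Pnpla1-/- skin, 2.21-fold and a difference of 1.15. Scd1, a stearoyl-CoA desaturase, gave 9684 and 16632, 2.09-fold and a difference of 1.06. Upstream of both, Acly, which encodes ATP citrate lyase, gave 17038 and 19973 (0.51), and Acaca, the cytosolic acetyl-CoA carboxylase, 8851 and 10688 (0.55). Acacb, the carboxylase at mitochondria whose malonyl-CoA restrains fatty acid oxidation, gave 1876 and 2598, a difference of 0.75. None of these 3 reached 2-fold, and all 5 were above the third quartile of all genes (0.32).

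The dimmer probes of the same genes pointed the same way. The other probes of Acaca gave differences of 0.54, 0.73 and 0.95, that of Acacb 0.94 and that of Acly 0.82. The pair of bright Acaca probes share 55 of 60 bases, and the array's annotation places one on chromosome 11, at the gene, and the other on chromosome 12, so that they are not independent readings. The dim Acaca probes were at 58.2 and 126 in WT skin, and the second probes of Acacb and Acly at 79.3 and 130. Levels of different probes cannot be compared.

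Scd2, a desaturase isoform known for its role in early postnatal life, gave 38154 in WT and 44137 in Pnpla1-/- skin, a difference of 0.49. Scd3, an isoform of sebaceous glands, had 3 probes that disagreed. Its brightest gave 731 and 619 (0.04), the next 241 and 403 (1.02) and the dimmest 125 and 153 (0.57), so that no single value describes it. Scd1, Scd2 and Scd3 lie together on chromosome 19 with Scd4, whose probe 48.6 kb from that of Scd1 gave 98.2 and 73.6 (-0.14).

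The Fads genes sit in another cluster on chromosome 19, and Fads1 and Fads2 encode desaturases of polyunsaturated fatty acids. Fads1 gave 1156 in WT and 777 in Pnpla1-/- skin, a difference of -0.29, and Fads2, which acts on linoleate, 191 and 129, also -0.29. A dimmer Fads2 probe gave 56.0 and 38.6 (-0.26). Fads3, in the same cluster, gave 3111 and 2581 (0.01). Fads1 and Fads2 lay below 0 under all 13 alternative settings, as far as -0.72 with spike-in centring. The median of the 10 genes was 0.50, and it stayed above 0 under every scaling, at 0.22 without scaling and 0.07 with spike-in centring.

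**Figure D2:**
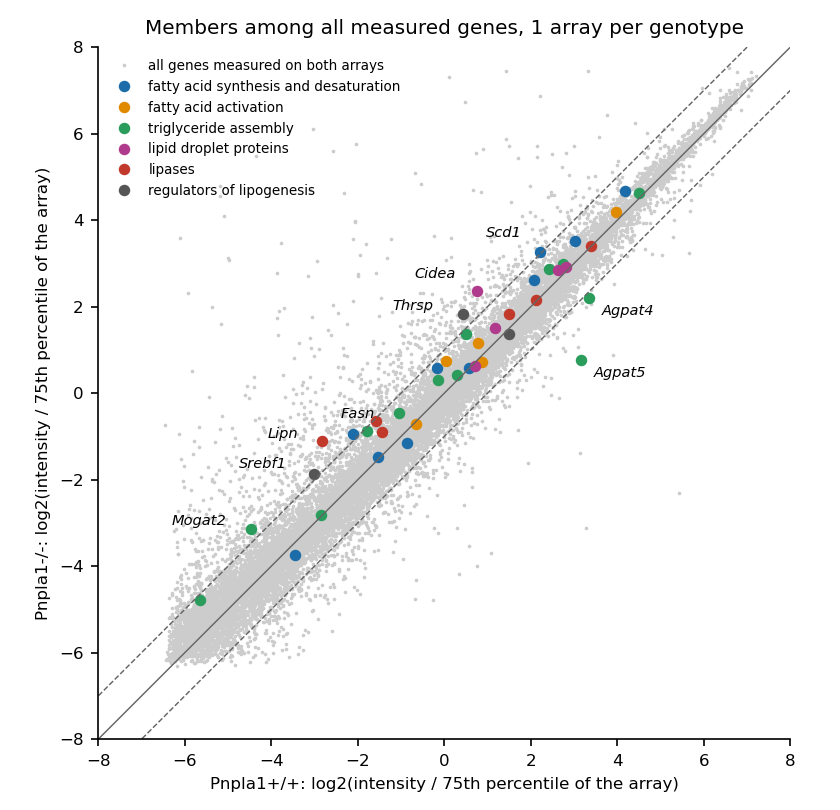
Level of each gene in WT (x axis) and Pnpla1-/- skin (y axis), each as log2 of the intensity over the 75th percentile of the array. Grey points are all genes measured on both arrays, coloured points the 42 members by role, the solid line marks equal levels and the dashed lines 2-fold. On the x axis the members run from -5.65 (Mogat1) to 4.51 (Dgat2), short of the brightest genes. Agpat5 and Agpat4 lie below the lower dashed line, and the 7 other named members lie above the upper one.

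The genes of fatty acid activation differed by -0.16 to 0.70. Acss2, the cytosolic synthetase that makes acetyl-CoA from acetate and a known SREBP target, gave 2159 in WT and 2882 in Pnpla1-/- skin, a difference of 0.70, with 0.47 at a dimmer probe. Acsl5, a long-chain acyl-CoA synthetase of endoplasmic reticulum and mitochondria, gave 3620 and 3869 (0.38). Acsl1, a synthetase of fat and other lipid-rich tissues, gave 33154 and 31310, which after scaling is a difference of 0.20, and 0.21 at its other probe. Acsl3, a synthetase of nascent lipid droplets, gave 1348 and 1050 (-0.08), and Acsl4, which prefers arachidonate, 3841 and 2830 (-0.16). No gene of this group was 2-fold apart. The group median of 0.20 lay inside the middle 50% of all genes and turned negative without scaling (-0.08) and with spike-in centring (-0.23).

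Triglyceride assembly held both members that were at least 2-fold lower, Agpat5 and Agpat4, and 1 that was at least 2-fold higher, Mogat2. Agpat5 encodes a mitochondrial lysophosphatidic acid acyltransferase. Its probe, at chr8:18881794-18881853 (mm9), gave 18792 in WT and 2947 in Pnpla1-/- skin, 5.24-fold lower and a difference of -2.39, which ranks 51 from the lowest among 22400 genes. Agpat4, an acyltransferase of the same family, gave 21541 and 7922 at chr17:12412423-12412482 (mm9), 2.24-fold lower and a difference of -1.16. Both remained at least 2-fold lower under every setting tried. Each is read by 1 probe. The last 30 bases (31 to 60) of both probes are shown because these differences rest on them, beside those of Mogat2 and of the lipase gene Lipn, described below (capitals mark the polyadenylation hexamer AATAAA where present).
Agpat5: agaagactttaccttcagtgttgatcttgg
Agpat4: agatgactaaattatgcctccaaataagaa
Mogat2: acatgttacctcAATAAAtgaaaggagtct
Lipn: gcccatgagaggctttaggaaaacccctgg
The Agpat5 probe shared a run of 17 bases with 1 other probe of the array, and those of Agpat4, Mogat2 and Lipn shared no run of 16 bases with any. Across the array AATAAA occurred in 12.59% of probes and among the 63 member probes in 14 (22.22%), a hexamer that is found close to a transcript's 3′ end.

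The remaining Agpat genes did not share the low values. Agpat1 gave 2593 in WT and 2299 in Pnpla1-/- skin (0.11), Agpat3 14158 and 13639 (0.23), and Agpat2, the isoform required for adipose triglyceride, 11279 and 12622 (0.44), with 0.37 at its other probe. Genes beside this pair differed by less. Map3k4, with a probe 8.13 kb from that of Agpat4, differed by 0.17, an unnamed transcript (ENSMUST00000115691) 37.2 kb away by 0.58, and Mcph1 and Xkr5, 79.5 and 51.3 kb from that of Agpat5, by 0.04 and -0.33. Markers of the hair follicle were lower on the same array. All 6 (Krt27, Krt71, Krt31, Krt33a, Lhx2 and Shh) differed by -0.82 to -1.70, and 5 were at least 2-fold lower, with their summed scaled level at 61.5 in WT and 31.8 in Pnpla1-/- skin. Whether they have a part in the Agpat4 and Agpat5 values was not tested, and in bulk skin fewer cells of a type and less RNA per cell cannot be told apart.

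Mogat2 encodes a monoacylglycerol acyltransferase, which makes diacylglycerol without passing through phosphatidate. It gave 94.7 in WT and 196 in Pnpla1-/- skin, 2.52-fold higher and a difference of 1.33. Its relative Mogat1 gave 41.9 and 63.0 (0.87). Dgat2, 65.4 kb from Mogat2 on chromosome 7, gave 47992 and 42969, a difference of 0.12, and Dgat1 gave 1914 and 2132 (0.44). These 2 diacylglycerol acyltransferases catalyse the final step.

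The 3 lipins, phosphatidate phosphatases, were higher under every scaling tried. Lpin2 gave 614 in WT and 946 in Pnpla1-/- skin (0.91), with a second, dim probe at 55.9 and 160 (1.80). Lpin3 gave 2961 and 4440 (0.87), and Lpin1 1019 and 1264 (0.59), with a further probe at or below background on both arrays. The mean over the Lpin2 probes was 1.35. Gpam, the mitochondrial glycerol-phosphate acyltransferase that opens the pathway and a known SREBP target, gave 290 and 247, a difference of 0.05, and 0.00 at its other probe. The group median was 0.44, and 0.01 with spike-in centring, and the group spanned more than any other, from -2.39 to 1.33.

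Among lipid droplet proteins only Cidea was 2-fold apart. Cidea encodes a protein of droplet fusion known from brown fat, and also found in sebaceous glands. It gave 3551 in WT and 8941 in Pnpla1-/- skin, 3.06-fold higher and a difference of 1.61, and remained at least 2-fold higher under every setting, at 1.18 with spike-in centring. Cidec, its relative of white fat, gave 14822 and 13033 (0.10), and Plin1, the perilipin of adipocytes, 3457 and 2691 (-0.08). Plin3, a widely expressed perilipin, gave 12933 and 12498 (0.23), and Plin4 4780 and 4923 (0.32). The median of the 5 was 0.23, inside the middle 50% of all genes. It turned negative without scaling (-0.05) and with spike-in centring (-0.20).

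Fat and gland markers were examined beside Cidea. Of 9 adipocyte markers 8 were above background, Lep being below it on both arrays, and they differed by 0.06 (Adipoq) to 0.99 (Adrb3), with a summed scaled level of 113 in WT and 142 in Pnpla1-/- skin. Of 6 brown adipocyte markers, Ucp1, the uncoupling protein that defines brown fat, gave 99.2 and 2246, a difference of 4.78, whereas Cox8b, Cox7a1, Otop1 and Elovl3 differed by 0.46 to 0.55 and Dio2 by -0.43, and their sum was 7.02 and 10.7. The 9 sebaceous gland markers differed by -0.78 to 0.69, with sums of 53.2 and 31.9 set mainly by Krt79. Their part in the Cidea value was not tested.

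All 6 lipases lay above 0 in the values given here, and 1 was at least 2-fold higher. The direction of 3 of them (Lpl, Mgll and Lipm) depended on the setting. Of the 13 alternative settings, Lpl lay below 0 in 7 and Mgll in 5, and Lipm only with spike-in centring. Lipa, Lipk and Lipn stayed above 0 in all 13. Lipn, an acid lipase of the upper epidermis that is mutated in a human ichthyosis, gave 297 in WT and 810 in Pnpla1-/- skin, 3.31-fold higher and a difference of 1.73, the highest of the 42. Lipk, a related epidermal lipase, gave 710 and 1111 (0.93), just under 2-fold, and Lipm 5954 and 6138 (0.33). These 3 lie next to each other on chromosome 19, with the probes of Lipk and Lipm 37.8 and 37.0 kb from that of Lipn at chr19:34159349-34159408 (mm9). Ankrd22, whose probe lies 38.1 kb away beyond Lipm, gave 1722 and 4322, a difference of 1.61. An unnamed transcript (TC1725193), 28.7 kb from the Lipn probe on the side of Lipk, gave 90665 and 80949 (0.12), so that the values along this stretch varied.

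Lipa, the lysosomal acid lipase, gave 776 in WT and 925 in Pnpla1-/- skin (0.54). All 6 macrophage markers were higher, by 0.58 (C1qa) to 2.35 (Lyz2), with sums of 13.2 and 23.2. Their part in the Lipa value was not tested. By their brightest probes, the lipases of fat and muscle differed by less than repeated spots did. Lpl, lipoprotein lipase, gave 21963 and 18185 (0.01), with -0.01 at its other probe, and Mgll, which splits monoacylglycerol, 9190 and 7694 (0.03), with -0.02 and 0.14 at the other 2 probes above background. The median of the 6 lipases was 0.43, and -0.000374 with spike-in centring.

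Of the regulators of lipogenesis, Srebf1 and Thrsp were higher under every scaling tried and Mlxipl depended on the probe. Srebf1 gave 260 in WT and 474 in Pnpla1-/- skin, 2.21-fold higher and a difference of 1.15, equal to that of Fasn at this precision. Thrsp gave 2850 and 6122, 2.61-fold higher and a difference of 1.39. Both were under 2-fold with spike-in centring, at 0.72 and 0.95. Ndufc2, with a probe 5.51 kb from that of Thrsp, differed by 0.04. Other neighbours within 100 kb of Thrsp differed by -0.11 (Alg8) to 0.54 (Kctd21).

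Mlxipl had 2 probes close together on chromosome 5 with opposite readings. The brighter, at chr5:135614195-135614252 (mm9), gave 5978 in WT and 4463 in Pnpla1-/- skin (-0.14), and the dimmer, at chr5:135613705-135613764, gave 1409 and 2206 (0.93). A stretch of each is shown, with runs of at least 16 bases shared with another probe of the array in capitals.
Mlxipl, brighter probe, bases 23 to 52: gcatggtgaTGCACACCTTTAATCCCAGTA
Mlxipl, dimmer probe, bases 1 to 30: ggcatcttgcatgaatgtagatgtgtgtgt
The brighter probe shared such a run with 4 probes named for other genes or for none, the most of any member probe, and the dimmer with none. Which probe reads Mlxipl was not tested, and by the mean of both the gene lay at 0.39.

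**Figure D3:**
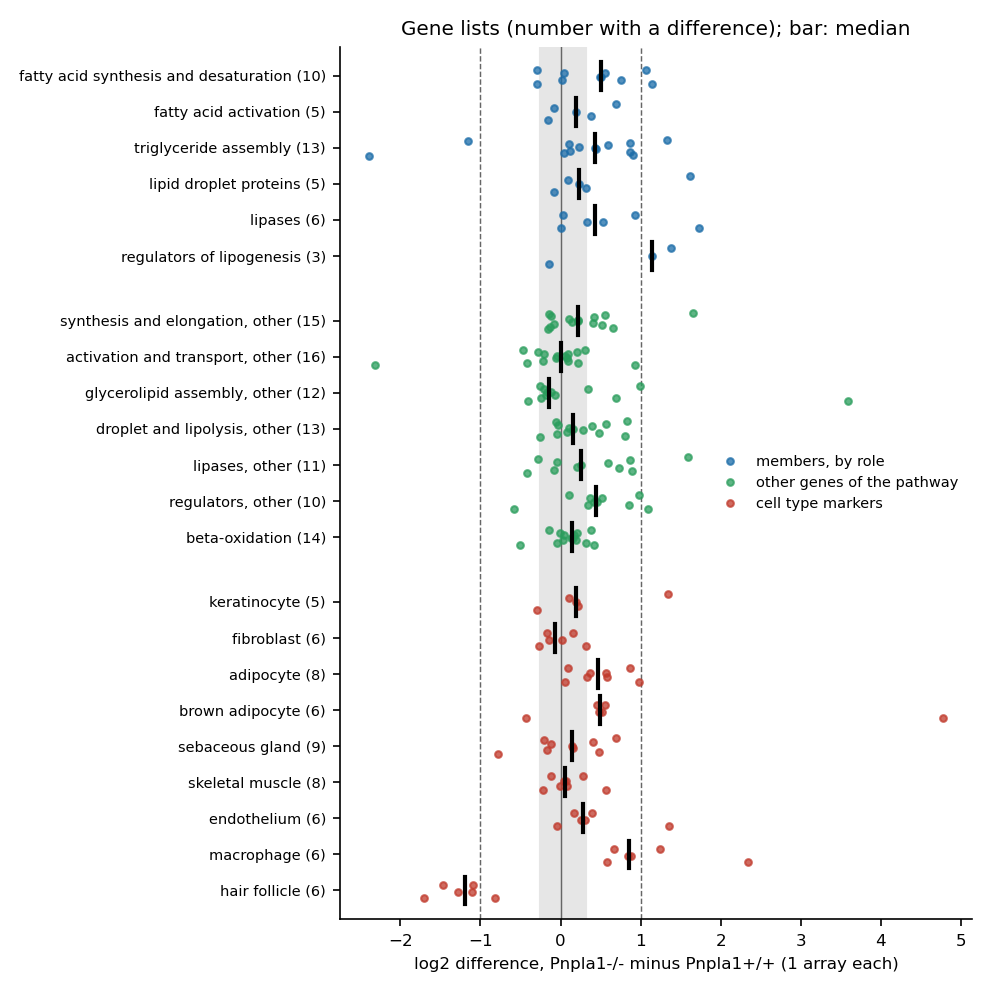
Log2 difference (Pnpla1-/- minus WT) of each gene in the 6 groups of members (blue), 7 lists of other genes of the pathway (green) and 9 lists of cell type markers (red), 2 green points (Fads6 and Lipg) being lower bounds. The black bar is the median of a list, the grey band the middle 50% of all genes and dashed lines mark 2-fold. Hair follicle markers lie to the left of 0 and macrophage markers to the right, and the medians of fatty acid activation, lipid droplet proteins and lipases are above 0 here but below it with spike-in centring.

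Other genes of the pathway were listed by role. Of 96 such genes 91 had a difference or a bound, with a median of 0.14. Of these, 4 (4.40%) were at least 2-fold higher, against 6.7% of all genes, and 1 (1.099%) was at least 2-fold lower, against 3.04%. Gk (named Gyk on the array), glycerol kinase, which phosphorylates glycerol for triglyceride assembly, gave 186 in WT and 1849 in Pnpla1-/- skin, a difference of 3.60, the largest of these lists. Gpd1, which makes glycerol phosphate from glycolysis, stood just below 2-fold, at 20734 and 33817 (0.99). The 12 genes of glycerolipid assembly with a difference had a median of -0.14, and 8 of them lay below 0.

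Acsl6, the brain and testis acyl-CoA synthetase, was the gene that was lower, at 219 in WT and 36.1 in Pnpla1-/- skin, a difference of -2.32. Fabp5, the epidermal fatty acid binding protein, gave 202556 and 316530 (0.93). The 16 genes of this list of activation and transport had a median of 0.01, with 8 above and 8 below 0. Among 15 further genes of synthesis and elongation the median was 0.22, and Fads6 was above background only in Pnpla1-/- skin (at least 3.14-fold higher). Elovl1, Elovl3, Elovl5, Elovl6 and Elovl7, which lengthen fatty acids beyond palmitate, differed by -0.09, 0.55, 0.22, -0.16 and 0.42.

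Of 10 further regulators 9 lay above 0 with the 75th percentile scaling, with a median of 0.44. Ppargc1b, a coactivator of SREBP-1, gave 267 in WT and 467 in Pnpla1-/- skin (1.09). Mid1ip1, the paralogue of Thrsp that promotes polymerisation of acetyl-CoA carboxylase, gave 6887 and 11219 (0.99), and Insig1, an SREBP target and inhibitor, 354 and 527 (0.85). Insig2, the other isoform, gave 6867 and 3767 (-0.58), the only value of this list below 0. Srebf2, of the cholesterol arm, differed by 0.52, and Scap, Mlx, Pparg, Nr1h3 and Nr1h2 by 0.46, 0.42, 0.37, 0.34 and 0.10. Whether SREBP activity has a part in these values was not tested.

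The last lists hold genes of lipolysis and oxidation. In the list of droplet and lipolysis genes none of 13 was 2-fold apart and the median was 0.16. Pnpla2, the main triglyceride lipase, gave 30106 in WT and 23799 in Pnpla1-/- skin (-0.06), and Abhd5, its coactivator, 4621 and 6666 (0.81). The 11 other lipases with a value had a median of 0.26. Of these, Lipg, endothelial lipase, was above background only in Pnpla1-/- skin and at least 3.01-fold higher. None of the 14 genes of mitochondrial and peroxisomal β-oxidation was 2-fold apart, with a median of 0.14, and the lowest was Cpt1a, the carnitine palmitoyltransferase that malonyl-CoA inhibits, at 3756 and 2177 (-0.50).

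Position and probe number describe the members further. They lay on 14 chromosomes, with 12 of 42 on chromosome 19 (the Scd, Fads and Lip clusters, Lipa, Acsl5 and Gpam) and 5 on chromosome 17, where Pnpla1 also lies. Those 5 differed in both directions, from -1.16 (Agpat4) to 0.91 (Lpin2). A single probe read 26 members, and of the 15 with several measured probes the median range between probes was 0.15. The range exceeded 0.5 in Mlxipl (1.07), Scd3 and Lpin2. Among the 9 members at least 2-fold apart none had more than 1 probe, so that no second probe bears on them.

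**Figure D4:**
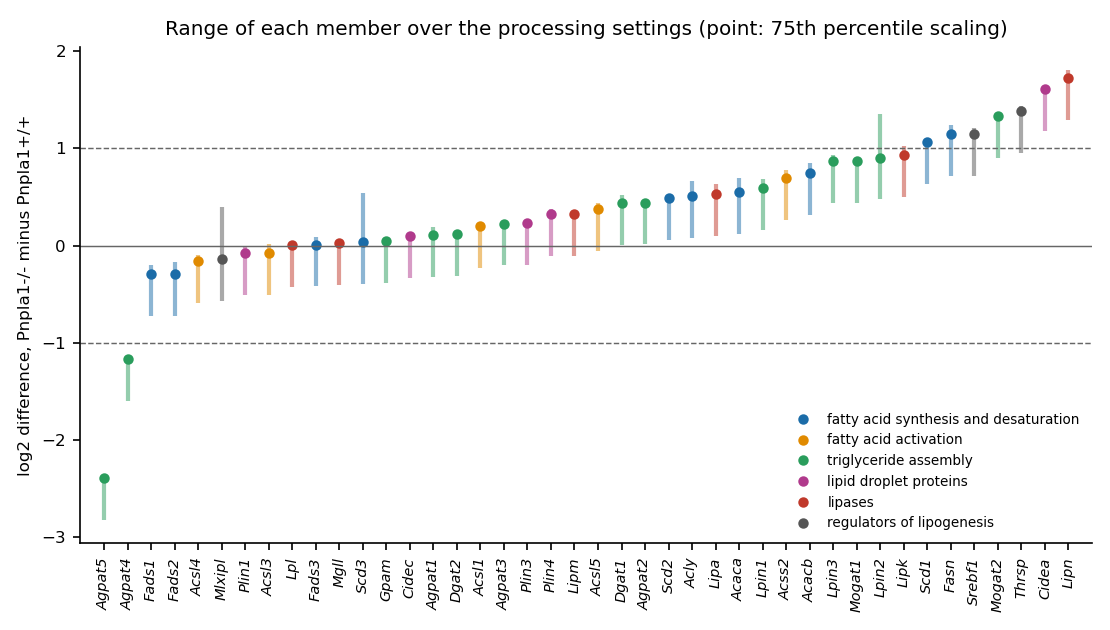
Log2 difference of each member (y axis, Pnpla1-/- minus WT) in order of size. Points are the values scaled by the 75th percentile and bars span 13 alternative settings of scaling, background correction, filter and probe choice. The bars of Lipn, Cidea, Agpat4 and Agpat5 stay beyond the dashed 2-fold lines, 20 members stay above 0 and 6 below 0, and the other 16 cross it.

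Across the 13 alternative settings, 20 members kept a value above 0 and 6 a value below 0 (Agpat5, Agpat4, Fads1, Fads2, Acsl4 and Plin1), and 16 did not keep one direction. Of the 9 members at least 2-fold apart, Lipn, Cidea, Agpat4 and Agpat5 were so in every setting. Thrsp was so in 12, Fasn, Srebf1 and Mogat2 in 11 and Scd1 in 8 of 13. Scd1 lay nearest to the threshold, and the members just below it were Lipk (0.93), Lpin2 (0.91), Mogat1 and Lpin3 (both 0.87).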

How the data were processed

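Total RNA from pooled skin was labelled with Cy3 by linear amplification and hybridised to 1 Agilent mouse array per genotype. The authors scanned the arrays with Feature Extraction 11.5.1.1, and the deposited intensity of each spot is a background-subtracted and detrended signal on a linear scale, with flags for outliers, saturation and signal well above background. A table the authors also deposited holds the ratio of each intensity to 1 factor per array, close to its 75th percentile, and served as an alternative.

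From the 43020 non-control spots (39429 probes), log2 of the intensity minus log2 of the array's 75th percentile was taken with pandas 2.3.3 and numpy 2.4.6 (Python 3.11.15). The 193 spots flagged as outliers were dropped, none of them of a member, and no spot was saturated. In WT 71.7% and in Pnpla1-/- 73.3% of spots were well above background. Spots of a probe were averaged, and a gene was read by its brightest probe. A gene above background on both arrays has a difference (20705) and one above on 1 array only a lower bound on its size (1695), taken against the lowest signal well above background. Quantile, cyclic loess and normexp alternatives used limma 3.58.1 in R 4.3.3, and the script was tested on simulated data. Array number, 1 per genotype, limits the precision, and no test was run.

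The members and gene lists were chosen with earlier results of these data known. All 42 members are accounted for. Intensities are given for members at least 2-fold apart and for others of each role, other pathway genes by counts with those at least 2-fold apart, and markers by range. Some pathway genes under 2-fold were named after their values were seen. They are Gpd1, Fabp5, the Elovl genes, Mid1ip1, Insig1, Insig2, Srebf2, Scap, Mlx, Pparg, Nr1h3, Nr1h2, Pnpla2, Abhd5 and Cpt1a. The neighbouring genes (Scd4, Map3k4, Mcph1, Xkr5, Ankrd22, Ndufc2, Alg8, Kctd21 and 2 unnamed transcripts) were also named afterwards. Neighbours of Fasn, Srebf1 and Cidea are not given. Markers shared with the pathway lists include Fabp4, Lipe, Pparg and Elovl3. Probe positions are the array annotation's (mm9) and were not converted, and exon or UTR annotation in that build was not used here. Promoters are from RefSeq (GRCm38.p6).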

Additional observations from a re-analysis of the deposited data

How the results depend on the processing

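The settings that move the zero line moved most values, and the cause of the difference between them was not tested. Without scaling, the median of all genes was -0.28, the medians of synthesis, activation, assembly, droplet proteins, lipases and regulators were 0.22, -0.083, 0.16, -0.049, 0.15 and 0.87, and 4 members were at least 2-fold higher. With spike-in centring these were -0.43 for all genes, then 0.071, -0.23, 0.0059, -0.20, -0.000374 and 0.72, and 2 members. Pnpla1 was then at -2.35 and -2.50. Genes at least 2-fold higher and lower numbered 1501 and 682 with the 75th percentile scaling (68.8% higher), 999 and 1425 without scaling (41.2%) and 828 and 2180 with spike-in centring (27.5%). With normexp they numbered 958 and 322, Pnpla1 was at -1.51 and the regulators at 1.001, and without a filter on dim probes they numbered 3047 and 1107, where the median of all genes was 0.10. Quantile normalization gave medians of 0.36 for synthesis and 0.047 for activation and changed the higher share to 58.8%, and the mean over probes gave 0.60 for synthesis. At 1.5-fold 3097 and 2095 genes and 14 members higher were counted, and at 3-fold 684 and 229 genes, 2 members higher and 1 lower. The 2 members at least 2-fold lower were so under each of the 13 alternatives at 2-fold. Of the values of these results under the alternatives, 115 moved by less than the spread of repeated spots (counts by less than 1.5 times) and 36, given above, by more.

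No paired analysis was possible because there was 1 array per genotype, and no array was left out. Biological spread is unknown, and signal over background limits Mogat1 and Mogat2 most. Litter, sex, tissue sampling and pool cannot be told apart from genotype.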
